A study of Mus musculus with 11 samples.

Results

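Gastric tumours of mice with floxed Cdh1 and Trp53 were compared with normal gastric epithelium across all measured autosomal genes. The tumour group, pCP_GC, held 3 samples of diffuse-type gastric cancer from mice that carried Pdx-1-Cre and were F/F at both Cdh1 (Cdh1F/F) and Trp53 (Trp53F/F), where F is a floxed allele and Cre recombinase driven by the Pdx-1 promoter recombines both floxed alleles of Cdh1 and of Trp53. The control group, NGE, held 4 samples of normal gastric epithelium from Cre-negative mice, whose other alleles are not stated. A further tumour group, pChePS_GC, held 4 samples from mice that were Cdh1F/+ and, beside Pdx-1-Cre, also carried Trp53F/F and Smad4F/F, and is used here only to ask which levels differ between the tumour groups. All 3 groups were untreated, and the labels give no age, no sex and no stomach region. Whether each sample stands for a different mouse is not stated either, so the p-values below measure the spread between these samples, which may be technical. Cre acts only where the Pdx-1 promoter has been active, whereas the tumour samples are bulk tissue, so stromal and immune cells without recombination also contribute RNA.

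Each probe set with exactly 1 gene symbol was kept, and each gene was represented by its brightest probe set, judged by the mean over all 11 arrays. This gave 19938 genes, of which 19103 lie on autosomes and form the comparison. Expression is given as deposited, as normalized log2 signal, so a difference of 1 is a 2-fold change of signal. A gene passed when its limma p-value, adjusted over all 19938 genes with the Benjamini-Hochberg method, was below 0.05. "Rose", "fell" and "changed" are used only of genes that passed, and each change is the pCP_GC mean minus the NGE mean on the log2 scale.

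The gastric lining renews itself from progenitors that give rise to acid-secreting parietal cells, enzyme-secreting chief cells, mucous cells and endocrine cells. Parietal cells pump protons against a steep gradient, and they are packed with mitochondria that supply the ATP for it. E-cadherin, the product of Cdh1, holds epithelial cells together, and p53, the product of Trp53, halts or removes cells with damaged DNA. Diffuse-type gastric cancer is known for poorly cohesive cells that spread through a fibrous stroma.

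The array medians of the series, over all 35556 probe sets, lay between 7.63 and 7.81, and the small number of arrays limits the precision. Across genes, any 2 NGE arrays correlated at r = 0.990 to 0.994, and any 2 pCP_GC arrays at r = 0.972 to 0.988. Cdh1 read 12.95, 12.94, 13.02 and 13.02 in NGE and 12.02, 11.06 and 10.52 in pCP_GC, a fall of 1.78 (SE 0.29, adjusted p = 0.00154) without overlap between groups, and Trp53 was not analysed here. The X-linked RNA Xist averaged 12.24 ± 0.49 in NGE (SD, n = 4) and 5.67 ± 0.13 in pCP_GC (SD, n = 3), and the Y-linked gene Eif2s3y averaged 5.08 ± 0.10 and 9.31 ± 1.06. The groups therefore also carry opposite sex-linked levels, and sex and tumour state cannot be told apart in any autosomal difference below.

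The labelled tissues were checked against short marker lists. All 10 gastric epithelial markers were above the level of receptor genes that serves below as a measure of background in NGE. In pCP_GC 8 of 10 fell and 1 rose. The list's mean level per array went from between 13.52 and 13.69 in NGE to between 10.74 and 12.34 in pCP_GC. The list includes Cdh1, which is floxed in these tumours, so its fall cannot be read as a change of cell makeup. All 5 smooth muscle markers rose, with array means of 7.77 to 7.80 in NGE and 10.87 to 12.02 in pCP_GC. All 5 fibroblast markers rose (7.56 to 7.91 against 11.18 to 12.14), as did 4 of 4 macrophage markers (7.13 to 7.51 against 10.27 to 11.41) and 3 of 3 endothelial markers (7.04 to 7.24 against 9.83 to 10.30). None of the 3 measured T and B cell markers rose and 1 fell (7.02 to 7.14 against 6.85 to 7.71). In each group 1 of the 3 was under the receptor-gene level. All 4 measured pancreas markers fell (8.92 to 9.12 against 7.53 to 8.20), 2 of them with means under that receptor-gene level in each group, and so did 2 of 3 liver markers (10.92 to 11.21 against 9.25 to 10.06), none of which was under it. The NGE samples are labelled as epithelium and the pCP_GC samples as cancer tissue. The kind of tissue sampled and tumour state therefore cannot be told apart in the rises of stromal, vessel and immune genes. The part that a change in cell makeup has in the results below was not tested. In bulk tissue fewer cells of a type cannot be told apart from less RNA per cell.

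Of the 19103 autosomal genes, 10761 passed (56.3%), with 4416 higher in the tumours (23.1%) and 6345 lower (33.2%). Larger changes went mostly upward: 1592 genes rose by at least 2-fold (8.33%) and 567 fell by at least 2-fold (2.97%). The groups did not overlap for 1577 of these rises (8.26% of genes) and 558 of these falls (2.92%). At 8-fold or more there were 173 rises and 43 falls. The median change over all genes was -0.12. It was -0.26 in the dimmest 25% of genes, 4776 in number, which held 2036 of the lower calls but only 13 of the 2-fold falls. Small falls of dim genes were thus common, and the accounts below lead with changes of at least 2-fold. Centring each array on its median over the 19938 genes, not over all probe sets, moved the change of every gene down by 0.21. The share of rises among 2-fold calls then went from 73.7% to 56.1% (63.7% with quantile normalization). List medians below are to be read against the all-gene median of -0.12, and list counts against the all-gene shares of 23.1% higher and 33.2% lower. Counts near those shares do not set a list apart from genes in general.

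**Figure D1:**
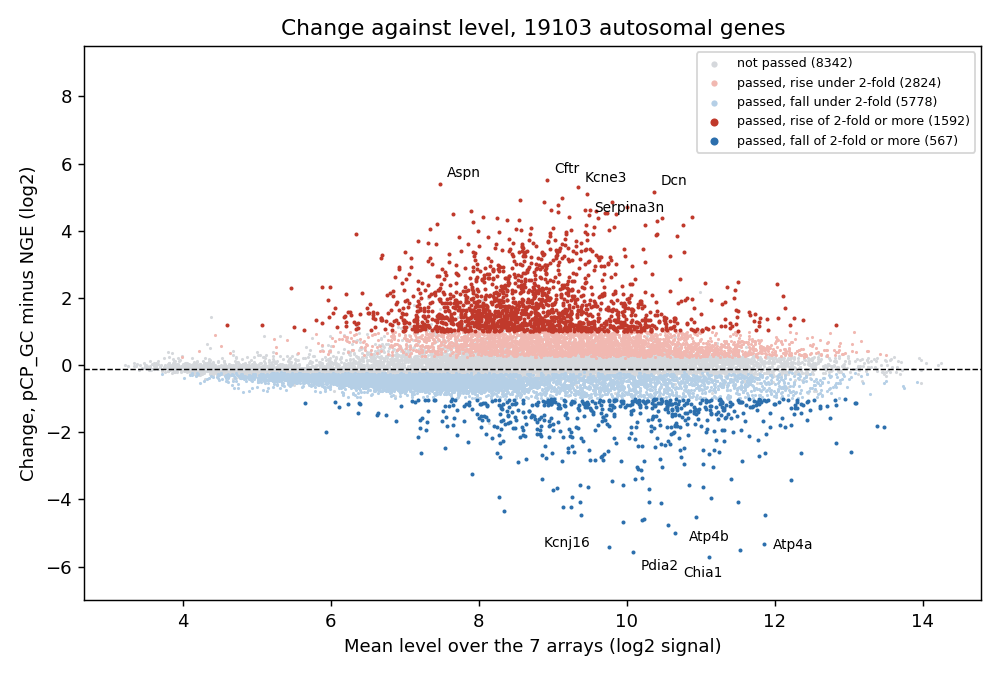
Change of each of 19103 autosomal genes (pCP_GC mean minus NGE mean, log2, vertical axis) against its mean level over the 7 arrays (log2 signal, horizontal axis). Grey points did not pass, coloured points passed with a change of at least 2-fold (1592 up in red, 567 down in blue), and pale points passed with a smaller change; the dashed line is the all-gene median of -0.12, and the labelled genes are the 5 largest rises and 5 largest falls by the naming rule.

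Genes of acid secretion, of the chief cell and of the exocrine pancreas were among the largest falls. Chia1, an acidic chitinase, read 13.34, 13.91, 13.85 and 13.14 in NGE and 6.70, 10.32 and 6.49 in pCP_GC and fell by 5.72 (SE 0.82, adjusted p = 0.000813). Atp4b, the beta subunit of the proton pump, read 13.87, 13.91, 13.93 and 13.86 in NGE and 7.19, 10.79 and 7.14 in pCP_GC and fell by 5.52 (SE 0.78, adjusted p = 0.000764). Atp4a, the catalytic alpha subunit, read 14.10, 14.14, 14.14 and 14.17 in NGE and 7.57, 11.39 and 7.48 in pCP_GC and fell by 5.32 (SE 0.83, adjusted p = 0.00125). All 3 genes were near the top of the array range in every NGE sample, and in the tumours replicate 2 stayed far above the other two, with no overlap with NGE. Without replicate 2 the changes were -6.96 for Chia1, -6.73 for Atp4b and -6.61 for Atp4a. Replicate 2 was the highest tumour array for 16 of the 20 largest falls, although over all 558 falls of at least 2-fold without overlap that array was replicate 1 in 285 genes, replicate 2 in 190 and replicate 3 in 83.

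The potassium side of acid secretion fell with the pump. Kcnj16, an inward rectifier channel, read 11.91, 12.19, 12.20 and 11.99 in NGE and 6.61, 7.48 and 5.91 in pCP_GC and fell by 5.41 (SE 0.31, adjusted p = 7.81e-06). Its relative Kcnj15 fell by 4.53, and Slc26a7, an anion exchanger, fell by 4.21. Esrrg, an orphan nuclear receptor that drives mitochondrial and ion transport genes, read 11.98, 12.13, 11.95 and 11.77 in NGE and 7.09, 7.75 and 7.0 in pCP_GC and fell by 4.68 (SE 0.18, adjusted p = 1.47e-06). Unlike the pump subunits, Esrrg was low in all 3 tumours. Of 25 measured genes of acid pumping and its trafficking 22 fell, 15 of them by at least 2-fold, with a median of -1.55. Of 18 zymogen and granule genes of chief cells 13 fell and 2 rose: the protein disulfide isomerase Pdia2 fell by 5.56, and Cblif, the intrinsic factor that carries vitamin B12, fell by 3.95. Nucb2, the precursor of nesfatin, was among the rises (1.13). Enzymes and granule proteins known from the exocrine pancreas also stood among the 20 largest falls: the phospholipase Pla2g1b fell by 4.46, the trypsin gene Try10 fell by 4.33 and Sycn, a protein of zymogen granules, fell by 4.12. Pla2g1b read 8.07, 11.96 and 7.96 in pCP_GC, with replicate 2 far above the others as for the pump subunits. Try10 read 5.85, 6.03 and 5.73 in pCP_GC and Sycn read 8.35, 8.03 and 7.97, without such a gap. Of 16 measured pancreatic acinar genes 12 fell, 3 of them by at least 2-fold, and 1 rose (median -0.56), beside the fall of the 4 pancreas markers given above. The part of pancreatic RNA in these falls was not tested.

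Receptors that control secretion changed in both directions, with more falls than rises overall and equal numbers at 2-fold or more. The receptor for cholecystokinin, Cckar, fell by 2.68, the somatostatin receptor Sstr2 fell by 2.15, and the histamine receptor Hrh2, through which histamine triggers acid, fell by 1.83. Hrh2 read 9.11, 9.72, 9.22 and 9.42 in NGE and 7.45, 7.66 and 7.51 in pCP_GC, and every tumour array was below every NGE array. Of 32 G protein-coupled receptors of gastric control 17 fell, 5 of them by at least 2-fold, and 5 rose, all by at least 2-fold (median -0.36), and the rises included Chrm2, a muscarinic receptor of smooth muscle (1.75), and S1pr1, a sphingosine phosphate receptor of endothelium (1.87). Of 17 endocrine genes 11 fell (median -0.48), with somatostatin, Sst, at -3.03, ghrelin, Ghrl, at -2.85 and chromogranin A, Chga, at -1.94. The iodide transporter Slc5a5 was a further large and even fall: it read 12.42, 12.57, 12.73 and 12.65 in NGE and 8.79, 9.09 and 8.97 in pCP_GC and fell by 3.64 (SE 0.11, adjusted p = 6.92e-07).

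**Figure D2:**
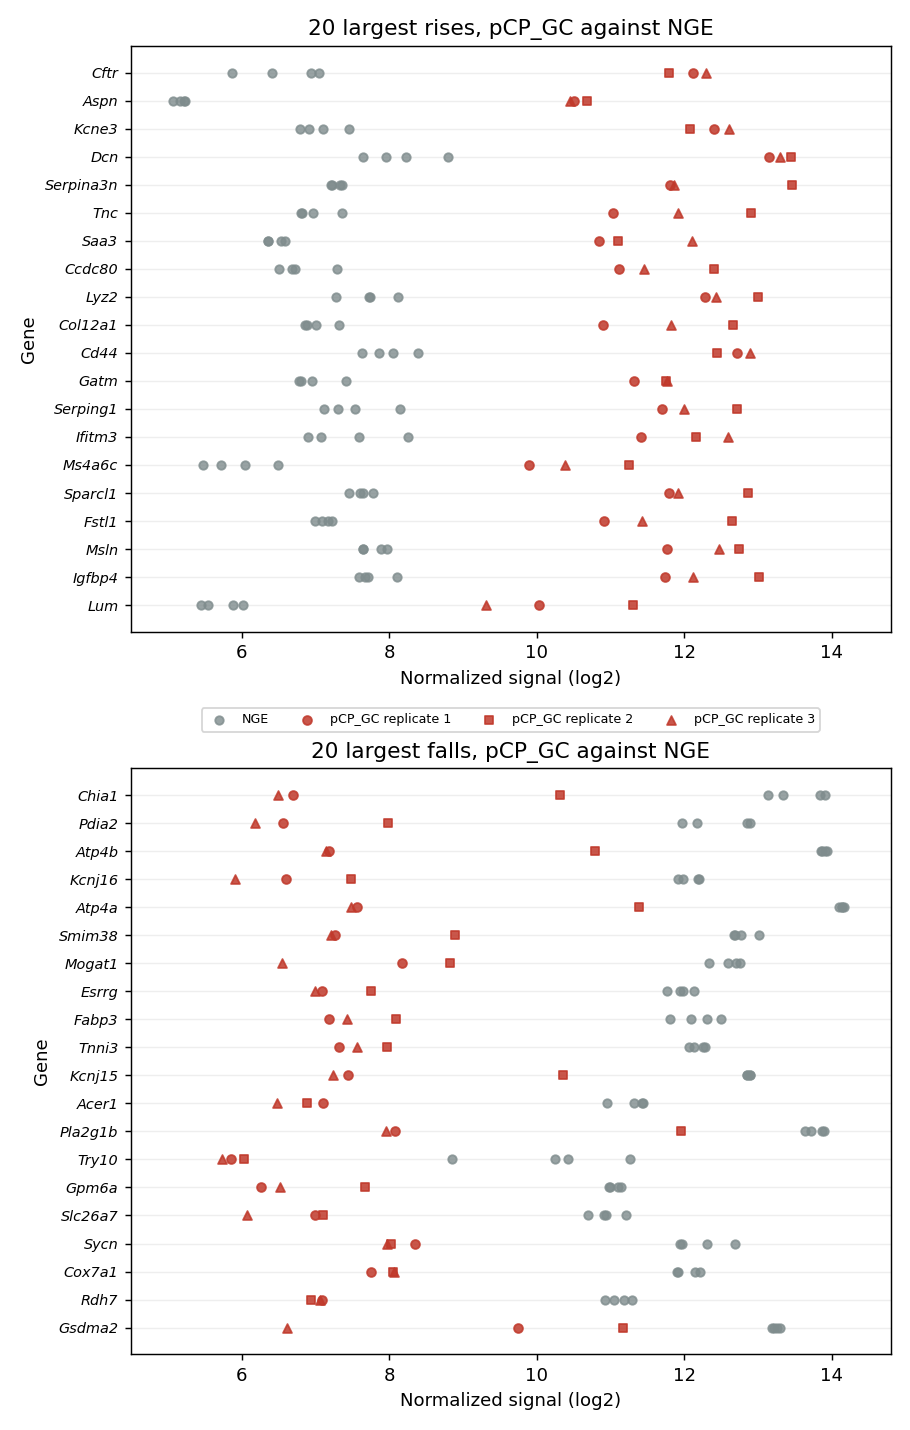
Normalized log2 signal (horizontal axis) of the 20 largest rises (upper panel) and 20 largest falls (lower panel), one row per gene, with a grey circle for each of the 4 NGE arrays and a red circle, square and triangle for pCP_GC replicates 1, 2 and 3. The groups do not overlap for any of the 40 genes, and the square of replicate 2 lies to the right of the other tumour arrays for 16 of the 20 falls.

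The 20 largest falls held 3 genes better known from heart or skeletal muscle, picked out after their values were seen and not a list of their own. Tnni3, the cardiac form of troponin I, read 12.26, 12.07, 12.28 and 12.14 in NGE and 7.32, 7.97 and 7.56 in pCP_GC and fell by 4.57 (SE 0.15, adjusted p = 7.15e-07). Cox7a1, the muscle form of a cytochrome c oxidase subunit, read 11.91, 12.22, 12.14 and 11.91 in NGE and 7.76, 8.05 and 8.07 in pCP_GC and fell by 4.09 (SE 0.12, adjusted p = 6.92e-07). Fabp3, the heart fatty acid binding protein, read 11.81, 12.50, 12.31 and 12.09 in NGE and 7.18, 8.10 and 7.44 in pCP_GC and fell by 4.61 (SE 0.23, adjusted p = 4.46e-06). In each case the NGE arrays were bright and close together, and the 3 tumours were low together. Outside those 20, Ppp1r3a, a glycogen-targeting phosphatase subunit of muscle, fell by 3.93, Cd36, which takes up fatty acids, fell by 3.41, and Slc2a4, the insulin-responsive glucose transporter, fell by 2.26. The measured list does not show such falls: of 13 striated muscle genes, listed as markers of muscle tissue that could be attached to a sample, 10 fell and none by at least 2-fold (median -0.39). Smooth muscle genes moved the other way: 14 of 18 rose (median 1.54), among them Acta2, smooth muscle actin, up 4.30, and Actg2, its enteric relative, up 3.73.

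Mitochondrial energy genes were lower by modest amounts and in large numbers. Of 24 genes of the tricarboxylic acid cycle and pyruvate entry 21 fell (median -0.55), of 22 genes of fatty acid oxidation and ketone use 19 fell (median -0.87), and of 30 complex I subunits 23 fell (median -0.58); no member of these 3 lists rose. Named members were Pdk4, a kinase that shuts pyruvate dehydrogenase (-2.79), Pcx, pyruvate carboxylase (-1.52), Oxct1, which activates ketone bodies (-1.99), and Ndufs1, the largest complex I subunit (-1.33). Among 24 genes whose symbols begin with Cox and a digit, the subunits and assembly factors of cytochrome c oxidase, 20 fell and 1 rose (median -0.49). Of 15 genes of mitochondrial biogenesis and creatine handling 10 fell, with the coactivator Ppargc1b at -1.31 and creatine kinase Ckb at -1.04. Gatm went the opposite way: this mitochondrial enzyme, which makes the precursor of creatine, read 6.96, 7.42, 6.81 and 6.78 in NGE and 11.32, 11.76 and 11.78 in pCP_GC and rose by 4.63 (SE 0.18, adjusted p = 1.47e-06). It was among the 20 largest rises, in a list in which most members fell.

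Amino acid metabolism split between breakdown and building. Of 32 catabolic genes 23 fell and 5 rose (median -0.85), with the glycine cleavage enzyme Gldc at -2.82, the branched-chain enzymes Aldh6a1 and Bckdhb at -2.24 and -1.83, and, among the rises, ornithine aminotransferase, Oat, at 0.94. Of 26 genes of serine, one-carbon and nucleotide synthesis 18 rose and none fell (median 0.65). These included Ctps, which makes CTP (1.89), Psat1 of serine synthesis (1.59) and Rrm2, a subunit of ribonucleotide reductase (1.65). With arrays centred on their medians 14 of the 26 rose and 2 fell. Gldc read 10.68, 11.04, 10.58 and 10.82 in NGE and 8.0, 7.77 and 8.10 in pCP_GC, and Ctps read 7.75, 8.14, 7.71 and 7.93 in NGE and 9.61, 9.85 and 9.87 in pCP_GC; neither gene overlapped between groups.

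Lipid genes changed in opposite directions by step. Scd1, a desaturase that makes monounsaturated fatty acids, read 7.89, 8.01, 6.80 and 7.41 in NGE and 11.28, 11.70 and 11.64 in pCP_GC and rose by 4.01 (SE 0.27, adjusted p = 1.95e-05). Elovl5, an elongase of polyunsaturated fatty acids, read 8.29, 8.48, 8.34 and 8.67 in NGE and 11.35, 11.68 and 11.72 in pCP_GC and rose by 3.14 (SE 0.13, adjusted p = 2.36e-06). Fads1 and Fads2, the desaturases of the same pathway, rose by 2.95 and 2.94. All 4 were higher in every tumour array than in every NGE array. Mogat1, which adds a fatty acid to monoacylglycerol, read 12.34, 12.60, 12.76 and 12.70 in NGE and 8.18, 8.82 and 6.54 in pCP_GC and fell by 4.75 (SE 0.45, adjusted p = 9.47e-05). Acacb, the acetyl-CoA carboxylase that restrains mitochondrial fat oxidation, read 11.38, 11.65, 11.47 and 11.43 in NGE and 8.44, 8.68 and 8.05 in pCP_GC and fell by 3.09 (SE 0.15, adjusted p = 3.55e-06). The lipase Mgll and the triglyceride-forming enzyme Dgat2 fell by 1.84 and 1.44. Across the 29 measured genes of fatty acid and triglyceride synthesis 8 rose and 15 fell (median -0.47). Of 18 genes of cholesterol synthesis 4 fell, 2 rose and 12 did not pass, and none reached 2-fold.

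Retinoid genes were also divided. Stra6, the membrane receptor that takes up retinol, read 8.49, 8.24, 8.36 and 8.50 in NGE and 10.73, 12.11 and 11.97 in pCP_GC and rose by 3.21 (SE 0.30, adjusted p = 8.49e-05). Rdh10 and Aldh1a3, which carry out successive steps from retinol to retinoic acid, rose by 1.61 and 2.26. Their counterparts abundant in normal epithelium fell: Rdh7, a retinol dehydrogenase, read 10.93, 11.18, 11.05 and 11.29 in NGE and 7.09, 6.94 and 7.06 in pCP_GC and fell by 4.08 (SE 0.11, adjusted p = 5.66e-07), while Dhrs9, Adh7 and Aldh1a1 fell by 2.55, 2.05 and 2.22. Aldh1a1 read 12.67, 12.75, 12.68 and 12.79 in NGE and 11.34, 10.27 and 9.88 in pCP_GC, and Aldh1a3 read 7.73, 7.52, 7.70 and 7.52 in NGE and 9.66, 9.62 and 10.36 in pCP_GC. The isozyme of retinal oxidation that was bright in NGE was thus lower in all tumours, and the dim one was higher in all of them. In the list of 28 retinoid genes 8 rose and 12 fell (median -0.24), beside 23.1% and 33.2% of all genes.

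**Figure D3:**
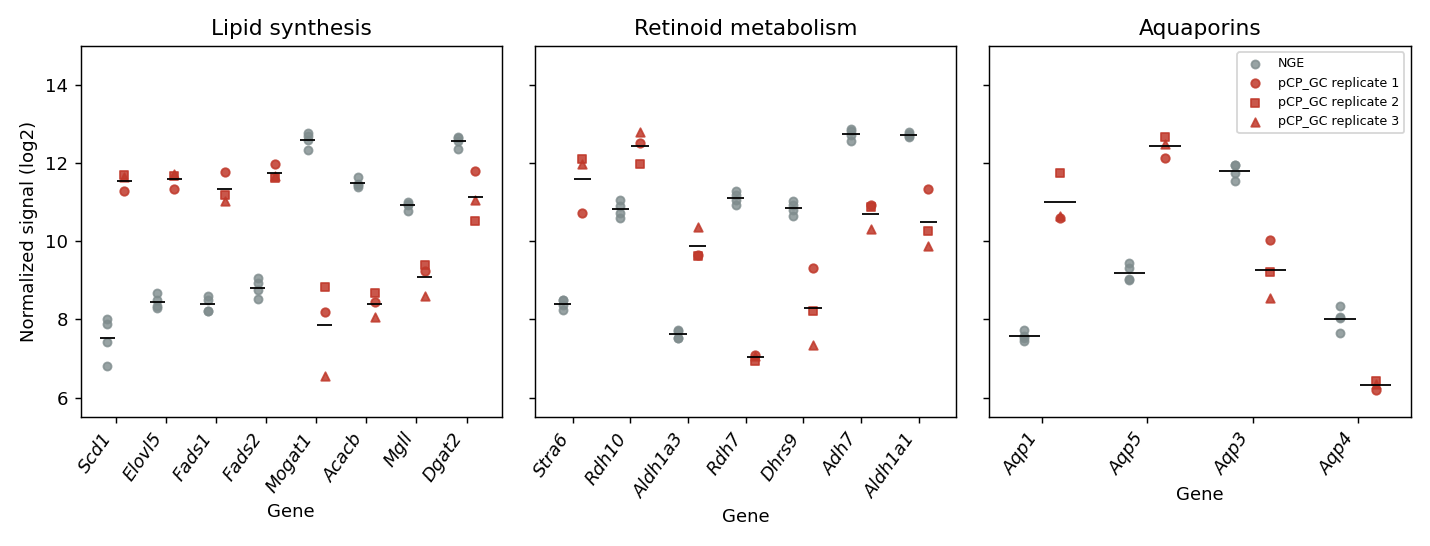
Normalized log2 signal (vertical axis) in each NGE array (grey) and each pCP_GC array (red; circle, square and triangle for replicates 1, 2 and 3) for genes of lipid, retinoid and water handling that moved in opposite directions, with bars at the group means. Scd1, Elovl5, Stra6, Aldh1a3, Aqp1 and Aqp5 are higher in every tumour array, and Mogat1, Acacb, Rdh7, Aldh1a1, Aqp3 and Aqp4 are lower in every tumour array.

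Water channels also changed in both directions. Aqp5, an aquaporin of secretory glands, read 9.31, 9.44, 9.03 and 9.0 in NGE and 12.13, 12.66 and 12.49 in pCP_GC and rose by 3.24 (SE 0.16, adjusted p = 4.05e-06), and Aqp1, found in vessels and other cells, rose by 3.43. Aqp3 of basolateral membranes read 11.95, 11.76, 11.55 and 11.95 in NGE and 10.03, 9.22 and 8.54 in pCP_GC and fell by 2.54 (SE 0.30, adjusted p = 0.000303), and Aqp4 of parietal cells fell by 1.70. Of 11 aquaporins 2 rose and 8 fell, with 2 changes of at least 2-fold in each direction. The receptor-gene level was not reached in either group by 3 of the 11. Hypoxia genes, which many tumours raise, did not rise as a list: of 16 genes 2 rose and 8 fell, 6 of them by at least 2-fold (median -0.50), led by the carbonic anhydrase Car9 (-2.59) and the mitophagy receptor Bnip3 (-2.27). Car9 read 12.29, 12.33, 12.48 and 12.35 in NGE and 10.11, 8.98 and 10.22 in pCP_GC, with no overlap. Of 30 genes of glucose transport and glycolysis 12 fell and 13 did not pass; the lactate dehydrogenase subunit Ldhb fell by 2.85.

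Detoxifying enzymes were lower as a list, and their symbol families differed from each other. Of 36 genes of xenobiotic oxidation and conjugation 18 fell, 13 of them by at least 2-fold, and 4 rose (median -0.54; 33.2% of all genes fell), among them the epoxide hydrolase Ephx2 (-2.37) and, among the rises, the glutathione transferase Mgst1 (1.10). Of 16 carboxylesterases (Ces) 10 fell and none rose, with Ces2b at -2.63 and Ces2a at -1.85. Of 21 aldehyde dehydrogenases (Aldh) 10 fell, 6 of them by at least 2-fold, against 5 rises, with Aldh3a1 at -2.51 and Aldh3b2 at -2.41. Of 16 sulfotransferases (Sult) 4 fell and none rose, and of 11 glucuronosyltransferases (Ugt) 4 fell and 1 rose, shares not far from that of all genes; with arrays centred on their medians 9 and 8 of them fell, and without NGE replicate 4 the number for Ugt was 2. Members of such families share sequence, so a probe set may also bind a near-identical relative, and the value of a given member is uncertain to that extent.

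The largest rise was Cftr, the chloride channel of secretory epithelia, which read 6.94, 6.42, 5.87 and 7.05 in NGE and 12.12, 11.79 and 12.29 in pCP_GC and rose by 5.50 (SE 0.27, adjusted p = 4.05e-06). Kcne3, a potassium channel subunit that sustains chloride secretion, read 7.45, 6.92, 6.79 and 7.10 in NGE and 12.41, 12.08 and 12.61 in pCP_GC and rose by 5.30 (SE 0.18, adjusted p = 8.45e-07). Cd44, a hyaluronan receptor, read 8.39, 7.87, 7.63 and 8.06 in NGE and 12.71, 12.44 and 12.89 in pCP_GC and rose by 4.70 (SE 0.18, adjusted p = 1.47e-06). The 3 tumours lay close together for each gene and far above NGE. Of 16 mucous neck, antral and metaplasia genes 12 rose and none fell (median 1.30), including Wfdc2, a secreted protease inhibitor (3.36). Cftr, Kcne3 and Cd44 are members of this list, so its count in part repeats the rises just given. Epithelial junction genes did not rise as a list: of 32 simple epithelial keratins and junction genes 6 rose and 8 fell (median -0.03). Of 22 claudins (Cldn) 4 rose and 7 fell. These counts stand beside 23.1% and 33.2% of all genes. Within them the tight junction claudins Cldn7 and Cldn4 rose by 3.40 and 2.36, and Cldn8 fell by 1.75. Without pCP_GC replicate 2 the number of higher keratin and junction genes was 10. Cldn7 read 7.83, 7.95, 7.89 and 8.59 in NGE and 11.47, 11.05 and 11.88 in pCP_GC, above NGE in every tumour array. Mesothelin, Msln, known from mesothelium, rose by 4.54, as 1 of 2 rises among 9 mesothelial genes, and the annexin Anxa8 rose by 3.45.

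The normal signal of many rises was dim. In 11 of the 20 largest rises (Cftr, Aspn, Kcne3, Tnc, Saa3, Ccdc80, Col12a1, Gatm, Ms4a6c, Fstl1 and Lum) the NGE mean was under 7.24, a level that 95% of 1183 smell and pheromone receptor genes, taken as a measure of background, did not exceed in NGE. In 5 of the 20 largest falls (Kcnj16, Acer1, Slc26a7, Try10 and Gpm6a) the tumour mean was under the matching level of 6.86. If those levels are background, these changes are lower bounds, and the same holds for 28 of the 157 genes named here. The 20 rises had adjusted p-values up to 7.27e-05 and the 20 falls up to 0.00512.

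Matrix genes made up much of the upper end. Aspn, a small leucine-rich proteoglycan, read 5.22, 5.16, 5.23 and 5.07 in NGE and 10.51, 10.68 and 10.46 in pCP_GC and rose by 5.38 (SE 0.09, adjusted p = 5.27e-08), the most even of the large rises. Tnc, tenascin C, read 7.36, 6.97, 6.80 and 6.82 in NGE and 11.04, 12.91 and 11.91 in pCP_GC and rose by 4.97 (SE 0.37, adjusted p = 3.1e-05). Of 25 matricellular proteins 17 rose, 16 by at least 2-fold (median 3.29), with Sparcl1 at 4.57 and Igfbp4 at 4.52. Of 21 elastic fibre genes 16 rose (median 1.73), with Efemp1 at 4.40; of 12 laminins and nidogens 10 rose (median 1.86), with the basement membrane linker Nid1 at 3.39 and the epithelial laminin chain Lama5 at 2.50. Of 25 integrins 16 rose (median 0.72). Itga2, a collagen-binding subunit, read 7.69, 7.61, 7.86 and 7.47 in NGE and 11.98, 11.22 and 12.29 in pCP_GC and rose by 4.17 (SE 0.23, adjusted p = 7e-06). Fibroblast markers rose on the same arrays, as given above. Replicate 2 had the highest level in 14 of the 20 largest rises and in 903 of the 1577 rises of at least 2-fold without overlap.

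Growth factor genes changed in both directions. Among ligands of receptor kinases, Hgf, which acts on Met, read 6.21, 6.30, 6.22 and 6.33 in NGE and 9.10, 8.96 and 9.35 in pCP_GC and rose by 2.87 (SE 0.11, adjusted p = 1.36e-06). In its list of 20 receptors and ligands of the EGF and HGF families 6 rose and 6 fell (median 0.18). The stromal fibroblast growth factors Fgf7 and Fgf10 rose by 2.42 and 2.45, and the receptor gene Fgfr2, one form of which binds both, read 8.82, 8.88, 8.91 and 8.76 in NGE and 10.62, 10.53 and 10.67 in pCP_GC and rose by 1.77 (SE 0.09, adjusted p = 3.76e-06). In the list of 26 fibroblast growth factors and receptors 7 rose and 13 fell (median -0.32), and most members did not share these rises. Among Wnt genes Wnt5a, a ligand mostly of noncanonical signalling, rose by 3.20, and the secreted inhibitors Sfrp1 and Wif1 rose by 4.46 and 3.00. Of 38 genes of the list 10 rose and 16 fell, beside 23.1% and 33.2% of all genes. Sfrp1 read 7.92, 7.84, 7.08 and 7.49 in NGE and 11.33, 13.06 and 11.72 in pCP_GC, again highest in replicate 2.

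Genes of the Bmp pathway were divided: of 28 measured, 10 rose, 8 of them by at least 2-fold, and 9 fell, 4 of them by at least 2-fold (median 0.02). Among all genes 23.1% rose and 33.2% fell, 8.33% and 2.97% by at least 2-fold. The ligand Bmp4 read 7.68, 8.15, 7.31 and 7.35 in NGE and 11.29, 10.55 and 11.30 in pCP_GC and rose by 3.42 (SE 0.25, adjusted p = 2.61e-05). The antagonist Grem1 read 8.12, 7.42, 7.68 and 8.27 in NGE and 10.53, 12.45 and 11.78 in pCP_GC and rose by 3.71 (SE 0.41, adjusted p = 0.000215). Id1 and Id3, commonly used as targets of the pathway, fell by 1.24 and 1.46, with Id3 at 10.67, 10.47, 10.31 and 10.37 in NGE and 9.26, 8.83 and 8.88 in pCP_GC and no overlap. The receptor Bmpr1b fell by 1.70. Of 11 genes whose symbols begin with Bmp and a digit 6 rose and 1 fell: Bmp2, a ligand, fell by 1.44 (adjusted p = 0.00335), and it no longer passed when all 11 arrays were fitted together (adjusted p = 0.075). Without NGE replicate 2 the number of lower Bmp genes was 2. Insulin-like growth factor binding proteins were divided too: Igfbp4, Igfbp5 and Igfbp7 rose by 4.52, 4.01 and 4.42, and Igfbp2 read 9.94, 10.41, 10.55 and 10.27 in NGE and 7.55, 8.30 and 7.78 in pCP_GC and fell by 2.42 (SE 0.20, adjusted p = 5.08e-05).

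Transcription factors of stomach and gut were divided: of 25 measured 8 rose and 10 fell, 5 and 4 of them by at least 2-fold (median -0.13), beside 23.1% and 33.2% of all genes. The largest change was the rise of Onecut2, a factor of endoderm development, which read 7.92, 7.91, 7.93 and 8.29 in NGE and 11.78, 11.20 and 11.46 in pCP_GC and rose by 3.46 (SE 0.16, adjusted p = 2.76e-06). Klf4, a factor of differentiated surface cells, read 12.01, 11.76, 11.91 and 12.04 in NGE and 10.59, 10.15 and 10.20 in pCP_GC and fell by 1.62 (SE 0.13, adjusted p = 4.25e-05). Foxa3 and Gata4, endoderm factors, fell by 1.26 and 1.11. The nuclear receptors Nr0b2, which represses bile acid synthesis genes in liver, and Nr3c2, the mineralocorticoid receptor, fell by 2.79 and 1.80. The epithelial factor Ehf rose by 1.70 and read 10.23, 10.28, 10.05 and 10.14 in NGE and 11.88, 11.69 and 12.06 in pCP_GC, and the stromal factors Foxf1 and Zeb2 rose by 2.67 and 3.12.

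Acute-phase and clotting genes were among the sharp rises. Saa3, a serum amyloid, read 6.36, 6.58, 6.53 and 6.36 in NGE and 10.85, 11.11 and 12.11 in pCP_GC and rose by 4.90 (SE 0.26, adjusted p = 6.29e-06). Serpina3n, a protease inhibitor, read 7.36, 7.21, 7.22 and 7.33 in NGE and 11.81, 13.46 and 11.86 in pCP_GC and rose by 5.10 (SE 0.36, adjusted p = 2.21e-05). Among iron and copper carriers ceruloplasmin, Cp, rose by 4.33, Lcn2, which binds bacterial iron carriers, rose by 3.24, and transferrin, Trf, rose by 2.88. None of these overlapped with NGE, and the dim NGE levels of Saa3, Cp and Lcn2 were under the receptor-gene level. Of 27 genes of clotting and its dissolution 13 rose and 7 fell (median 0.66), and 4 were under the receptor-gene level in both groups. The list's median change was -0.04, 0.59 and 0.37 in pCP_GC replicates 1, 2 and 3. Clotting factor V, F5, read 8.01, 7.79, 7.68 and 7.46 in NGE and 11.76, 10.72 and 11.78 in pCP_GC and rose by 3.68 (SE 0.26, adjusted p = 2.23e-05). Tissue factor, F3, rose by 3.24, thrombomodulin, Thbd, rose by 3.04, and the thrombin receptor F2r rose by 3.53. In prostaglandin metabolism the synthesising enzyme Ptgs2 read 7.55, 7.71, 7.41 and 7.43 in NGE and 9.54, 9.92 and 12.09 in pCP_GC and rose by 2.99 (SE 0.52, adjusted p = 0.00208), and the degrading enzyme Hpgd read 12.97, 13.15, 13.02 and 13.03 in NGE and 11.95, 11.91 and 11.28 in pCP_GC and fell by 1.33 (SE 0.16, adjusted p = 0.000382). Ptgs2 was highest in replicate 3, where it was far above the other tumours.

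Immune genes rose by cell type. Of 37 macrophage receptors 31 rose, 29 of them by at least 2-fold (median 1.90), of 21 complement genes 14 rose (median 1.39), and of 35 chemokines 17 rose and 2 fell (median 0.96). Lyz2, lysozyme of macrophages, read 7.74, 8.12, 7.28 and 7.73 in NGE and 12.28, 13.01 and 12.43 in pCP_GC and rose by 4.85 (SE 0.22, adjusted p = 3.14e-06). Ccl11, which draws eosinophils, rose by 3.90, and the complement inhibitor Serping1 rose by 4.61. Lymphocyte genes did not rise as a list: of 28 genes 4 rose, 7 fell and 17 did not pass (median -0.10). The shares over all genes were 23.1% higher and 33.2% lower. Of the 28 genes 11 were under the receptor-gene level in both groups, which limits what the list can show. No fall reached 2-fold, and the T cell gene Cd8a was at -0.60. Of the rises 2 were at least 2-fold, and the highest change in the list was 1.96. The number of lower lymphocyte genes was 4 without NGE replicate 1, without NGE replicate 3 or without pCP_GC replicate 1. Of 26 endothelial genes 22 rose (median 1.28), with Emcn at 4.42 and Cdh5 at 3.92.

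**Figure D4:**
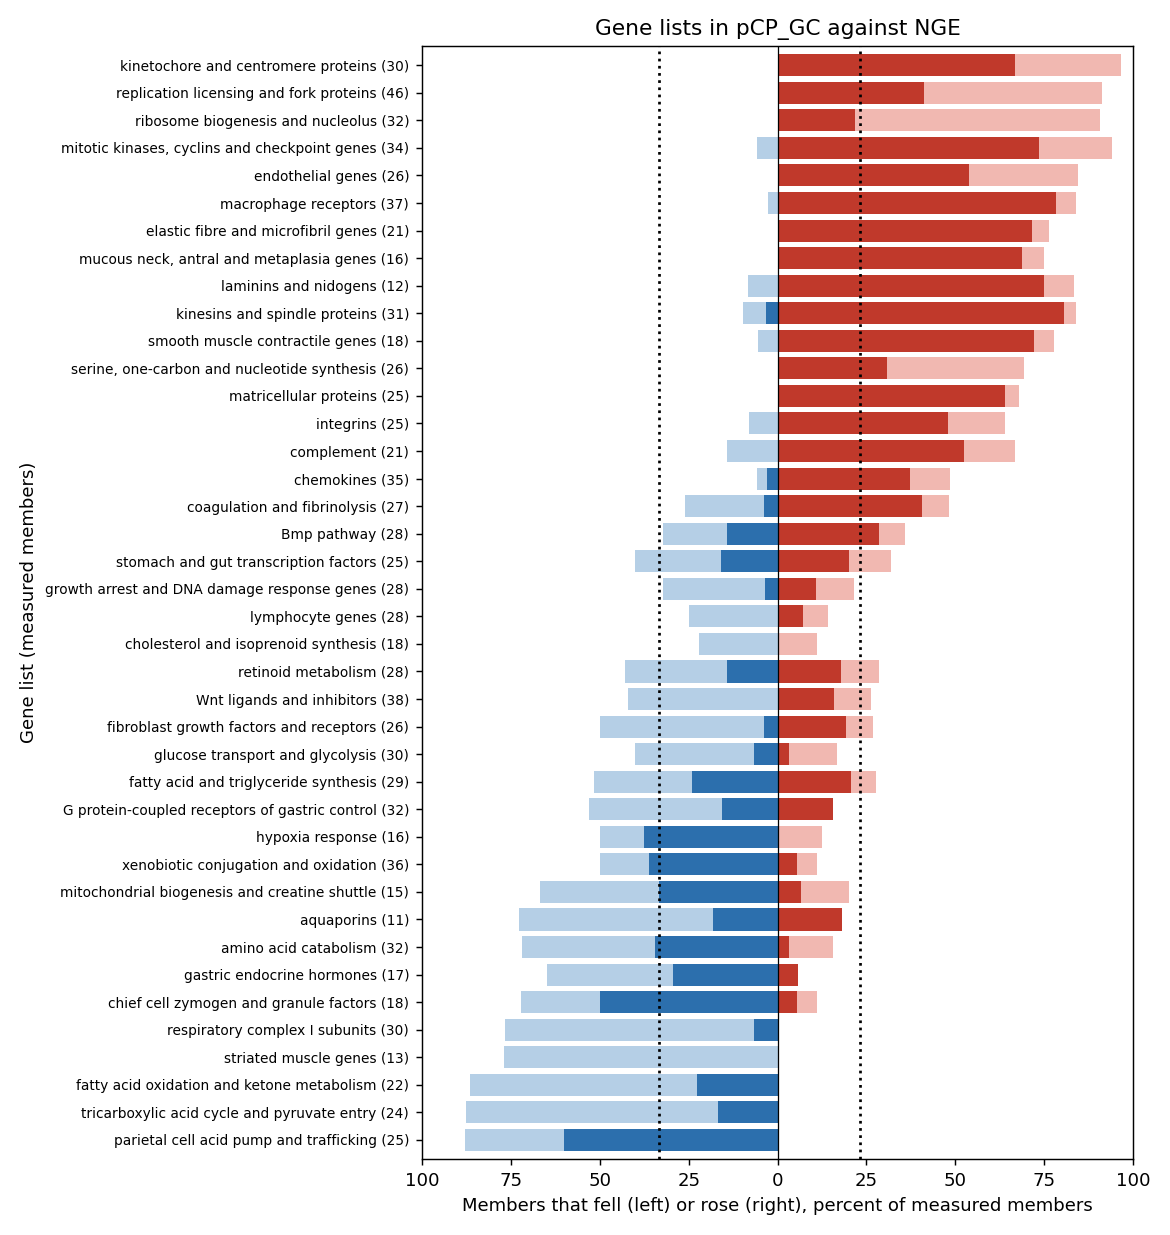
Share of measured members (percent, horizontal axis) that rose (red, to the right) or fell (blue, to the left) in pCP_GC against NGE for 40 gene lists, with the darker part of each bar for changes of at least 2-fold and the number of measured members after the name. The dotted lines mark the shares over all autosomal genes, 23.1% higher and 33.2% lower; mitosis, macrophage and laminin lists lie far to the right and acid secretion, fat oxidation and complex I lists far to the left.

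Genes of cell division rose together. Of 34 mitotic kinases, cyclins and checkpoint genes 32 rose and 2 fell (median 1.51), of 30 kinetochore and centromere proteins 29 rose (median 1.11), and of 31 kinesins and spindle proteins 26 rose and 3 fell (median 1.54). Bub1, a checkpoint kinase, read 7.49, 7.70, 7.44 and 7.79 in NGE and 10.51, 9.89 and 10.48 in pCP_GC and rose by 2.69 (SE 0.17, adjusted p = 1.26e-05). Mad2l1, which holds back anaphase, read 9.23, 9.43, 9.18 and 9.39 in NGE and 11.47, 11.46 and 11.56 in pCP_GC and rose by 2.19 (SE 0.10, adjusted p = 2.68e-06). The tumours were close to each other, and no tumour array reached the NGE range. Among the members that fell, Wee1, a kinase that delays entry into mitosis, fell by 0.84, and Kif13b, a kinesin of cargo transport, fell by 1.15.

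DNA replication and ribosome assembly were higher as well. Of 46 replication genes 42 rose (median 0.83), with Mcm4 of the helicase at 1.52, Rfc4 of the clamp loader at 1.84 and the polymerase subunit Pole at 1.82; 8 of 10 genes whose symbols begin with Mcm and a digit rose. Of 32 genes of ribosome biogenesis and the nucleolus 29 rose (median 0.78), with Rrp1b at 1.67 and Gnl3 at 1.50. Of 19 nucleoporins (Nup) 16 rose and none fell (median 0.80), with Nup43 at 1.30. With arrays centred on their medians 35 of 46, 25 of 32 and 14 of 19 of these rose. Of 28 growth arrest and DNA damage response genes, a list that contains known p53 targets, 6 rose and 9 fell (median -0.21), close to the 23.1% and 33.2% of all genes, and 14 fell with arrays centred on their medians. The rises included the kinase Plk2 (2.38) and Phlda3, an inhibitor of Akt (1.29), and the falls included Dglucy, a glutamate cyclase (-1.13), and the kinase Plk3 (-0.89).

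Many mitotic genes carry in their promoters the CHR, an element searched here as TTTGAA, often with a CCAAT box. Both were searched on both strands of RefSeq promoter windows of GRCm38.p6, from 250 bases before to 50 after the annotated start, and matches that overlapped were counted for both motifs. Windows were found for 75 of the 87 genes that rose in the 3 mitosis lists. Of these, 43 held the CHR letters (57.3%) and 36 held both motifs (48%), against 2570 (17.2%) and 1170 (7.82%) of the 14958 windows of all measured autosomal genes. Among replication genes 5 of 36 windows held the CHR letters, among ribosome biogenesis genes 2 of 26, and among complex I subunits 1 of 27. The mitosis genes were listed by function and not by promoter, and a match is only a run of letters. The windows of Kif23, Ect2 and Prc1, which act together in closing the cell after division, are shown as examples of rises of the spindle list with both motifs; they were chosen after the matches were seen. They are given 5′ to 3′ on the gene's strand, with the CHR and CCAAT letters (ATTGG where the box is on the other strand) in capitals.
Kif23: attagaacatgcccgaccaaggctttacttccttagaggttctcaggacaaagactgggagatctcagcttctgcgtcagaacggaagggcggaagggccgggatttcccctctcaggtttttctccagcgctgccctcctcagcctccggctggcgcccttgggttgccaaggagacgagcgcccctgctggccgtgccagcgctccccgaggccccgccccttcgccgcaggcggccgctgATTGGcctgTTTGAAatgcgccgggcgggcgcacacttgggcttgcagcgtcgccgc
Ect2: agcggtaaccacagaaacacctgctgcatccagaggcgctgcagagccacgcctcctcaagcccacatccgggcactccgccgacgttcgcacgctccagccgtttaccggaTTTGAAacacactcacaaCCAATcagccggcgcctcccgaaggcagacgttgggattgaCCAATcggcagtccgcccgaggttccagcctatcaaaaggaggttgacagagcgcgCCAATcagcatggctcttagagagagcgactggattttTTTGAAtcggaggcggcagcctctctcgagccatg
Prc1: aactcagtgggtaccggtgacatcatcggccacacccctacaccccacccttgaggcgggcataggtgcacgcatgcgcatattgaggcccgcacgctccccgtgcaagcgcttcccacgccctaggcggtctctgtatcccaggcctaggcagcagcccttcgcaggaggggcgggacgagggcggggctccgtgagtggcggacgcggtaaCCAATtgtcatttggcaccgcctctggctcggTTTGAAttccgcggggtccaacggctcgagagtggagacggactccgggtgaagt
The window of Kif23 spans chr9:61946750-61947049 on the minus strand, that of Ect2 chr3:27153805-27154104 on the minus strand and that of Prc1 chr7:80294201-80294500 on the plus strand. In Prc1 the CHR begins 5 bases and the CCAAT box 37 bases before the annotated start, and Ect2 has 3 CCAAT boxes. The 3 genes rose by 2.54, 2.15 and 2.13. Kif23, a motor of the central spindle, read 8.41, 8.64, 8.61 and 8.63 in NGE and 11.46, 10.59 and 11.29 in pCP_GC, and Prc1, which bundles the spindle's microtubules, read 7.53, 8.07, 7.58 and 8.09 in NGE and 10.32, 9.37 and 10.14 in pCP_GC; Ect2, which activates the contractile ring, read 8.82, 9.09, 8.71 and 9.08 in NGE and 11.02, 10.99 and 11.21 in pCP_GC. Every tumour array was above every NGE array for all 3.

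The tumours were finally compared with the pChePS_GC tumours, in a fit of all 11 arrays. Here 73 autosomal genes passed (0.382%), of which 50 were higher in pCP_GC (0.262%) and 23 were lower (0.12%). None of the 20 largest rises and 20 largest falls against NGE was among them. Among the genes named here 2 passed, the Bmp ligand Bmp5 and transferrin. Bmp5 read 7.56, 7.62, 6.95 and 7.33 in NGE, 10.36, 9.04 and 9.61 in pCP_GC and 6.62, 7.50, 6.84 and 6.79 in pChePS_GC. It rose against NGE by 2.30, and the difference between the tumour groups was 2.73 (SE 0.30, adjusted p = 0.00665), with no overlap between the tumour groups. Trf read 8.18, 7.84, 8.29 and 8.16 in NGE, 10.78, 11.59 and 10.63 in pCP_GC and 12.50, 12.25, 12.71 and 12.75 in pChePS_GC. It rose in pCP_GC against NGE by 2.88 and was lower in pCP_GC than in pChePS_GC, at a difference of -1.55 (SE 0.22, adjusted p = 0.018). Trf no longer passed when pCP_GC replicate 1 was left out (adjusted p = 0.072) or when pCP_GC replicate 3 was (adjusted p = 0.0699); over all alternatives its adjusted p ran from 0.00154 to 0.473. Neither call held with the replicate number as a block. The tumour groups differ in their labelled alleles of both Cdh1 and Smad4, and these cannot be told apart in such a difference. Sex-linked levels of pChePS_GC were not examined. The 2 comparisons share the pCP_GC arrays, and a difference that did not pass does not show that the genotypes act alike.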

How the data were processed

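Biotin-labelled total RNA of each sample was put on 1 Affymetrix array, per the labels' protocols. The deposited table holds the authors' normalized log2 signal per probe set, made with Affymetrix Expression Console per the submitters' processing notes; the unit log2 was read from the range of the values, 2.88 to 14.6, and the sources used here give neither algorithm nor version. How background was corrected sets the level of dim probe sets, which can make or hide small changes there. Of 35556 probe sets 21789 had 1 gene symbol in the platform annotation, 1621 several and 12146 none (unnamed here), and 21698 of the former matched a RefSeq gene by gene number.

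Groups were taken from the labels. NGE and pCP_GC were fitted with lmFit and eBayes of limma 3.58.1 under R 4.3.3 (two-sided, Benjamini-Hochberg over 19938 genes), and pCP_GC against pChePS_GC in a fit of all 11 arrays. The script was tested on simulated data. Gene lists (86) and families of at least 10 genes sharing the letters of a symbol were described by counts and medians, with no set test. The members and lists were chosen with earlier results of these data known. Named genes are the 20 largest rises and 20 largest falls among protein-coding autosomal genes that passed without overlap, and up to 4 per direction in a list or family; members whose call was lost under an alternative were left unnamed, apart from Bmp2, so the stability of the named genes is not a result. Alternatives changed the arrays fitted, scaling, dim-gene filter, probe set summary, variance prior, array weights, replicate block and each array left out. Same-numbered NGE and pCP_GC arrays deviated together at r = 0.0545, 0.098 and 0.0578, so the numbers were not taken as pairs. Promoter windows come from RefSeq (GRCm38.p6); no build is named for the arrays, so only the windows' coordinates are given.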

Additional observations from a re-analysis of the deposited data

Results flagged for a closer look

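Differences between the tumour groups were found for Bmp5, at 2.73 (adjusted p = 0.00665), and Trf, at -1.55 (adjusted p = 0.018; pCP_GC minus pChePS_GC, log2). Among the 157 named genes, 1 of 4 NGE arrays lay apart from the rest for 6 genes by Dixon's test, which flags about 1 group in 20 by chance, and no cause was tested. Cldn7 read 8.59 in NGE replicate 4 and 7.83 to 7.95 in the others. Kif23 read 8.41 in NGE replicate 1 and 8.61 to 8.64 in the others, and Nup43 read 8.16 in NGE replicate 2 and 7.61 to 7.70 in the others. Phlda3 read 7.83 in NGE replicate 2 and 8.10 to 8.15 in the others, and Ppp1r3a read 9.53 in NGE replicate 4 and 10.06 to 10.13 in the others. Onecut2 read 8.29 in NGE replicate 4 and 7.91 to 7.93 in the others. In each of the 6 genes the group difference was larger than this gap, and the groups did not overlap.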

How the results depend on the processing

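With arrays centred on their medians 9788 genes were lower in pCP_GC than in NGE against 6345, and 954 against 567 were lower by at least 2-fold; the numbers of genes higher, 3000 and 1221, stayed within 1.5 times of 4416 and 1592. Leaving out each array in turn gave 3703 to 4290 genes higher and 4966 to 6363 lower, and 1491 to 1690 and 529 to 665 by at least 2-fold. With the replicate number as a block, which pairs arrays that share only a number, 3604 genes were higher and 4994 lower. Of these, 1545 and 562 changed by at least 2-fold. NGE replicates 1, 2 and 3 each deviated most like the pCP_GC array of their own number. But pCP_GC replicates 1 and 3 deviated most like NGE replicates 2 and 4 (r = 0.0696 and 0.1596). Of the 157 named genes 156 passed in the same direction under each alternative that was run, the exception being Bmp2 with all 11 arrays fitted (adjusted p = 0.075). This follows in part from how they were chosen. Against pChePS_GC the counts of 50 higher and 23 lower were less stable: centring gave 31 higher, leaving out 1 array at a time gave 19 to 102 higher and 7 to 49 lower, and the replicate block in limma gave 0 and 0, with 2023 of 19103 genes at an unadjusted p under 0.05. Without pCP_GC replicate 2 there were 102 and 49, without replicate 1 there were 19 and 10, and without replicate 3 there were 24 and 7; the cause was not tested. Signal near the receptor-gene level limits what can be said of dim genes, and 3 tumour arrays limit every estimate.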

Other observations

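Several gene groups outside the account above showed little or divided movement. Of 34 genes of protein folding and stress in the endoplasmic reticulum 4 rose and 9 fell (median -0.10), with 7 rises without pCP_GC replicate 2. Of 19 tRNA synthetases 5 rose and 2 fell (median 0.19), with 3 rises without NGE replicate 1, NGE replicate 3 or pCP_GC replicate 1. Of 38 proteasome subunits 16 rose, none by at least 2-fold, and 3 rose with arrays centred on their medians; without NGE replicate 3, NGE replicate 4 or pCP_GC replicate 3 the number was 10, 8 or 10. Of 35 interferon-induced genes 13 rose and 4 fell (median 0.05). The tumours differed here: the list's median change was -0.13, -0.05 and 0.95 in pCP_GC replicates 1, 2 and 3, and without replicate 3 the number of falls was 10. Of 37 Hox genes 24 fell and 1 rose, none by at least 2-fold, and 18 of the 37 were under the receptor-gene level in both groups; 15 fell without NGE replicate 4, 12 with quantile normalization (2 rose) and 11 without the dimmest 25% of genes. Of 351 solute carriers whose symbols begin with Slc 64 rose and 156 fell, with 26 changes of at least 2-fold in each direction. Of 333 zinc finger genes whose symbols begin with Zfp 110 rose and 42 fell (median 0.14), but with arrays centred on their medians 57 rose and 87 fell, so this direction depends on the scaling. Of 22 protocadherin beta genes, a cluster of near-identical copies that the array may not tell apart, 16 rose and none fell, and 12 rose with arrays centred on their medians.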
